A study of Mus musculus with 5 samples.

Results

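The genes described here encode matrix proteoglycans, tenascins, SPARC proteins and a fibulin: Bcan, Ncan, Vcan, Hapln1, Tnc, Tnr, Sparc, Sparcl1 and Fbln1. They were chosen by name, and all 9 were found among the 16422 genes measured, each past the authors' filter on low values in both conditions. Nuclear RNA had been sequenced from retinae of mice labelled Aldhl1l-Cre/Ert2+; NuTRAP+, treated with tamoxifen, in which Cre activity under the Aldh1l1 promoter switches on a reporter whose biotin-tagged protein sits in the nuclear membrane. Positive libraries held nuclei captured on streptavidin beads by INTACT, from animals 12, 40 and 55 (n = 3), and the series' design text calls this fraction Müller glia. Input libraries held nuclei of the whole retina, set aside before capture, from animals 40 and 55 (n = 2). Genotype, tamoxifen and the pooling of 2 retinae per sample were shared by all 5 libraries, ages were not given, and a spin before the split took out undissociated tissue rich in vessels. An Input library of animal 12 was not used here.

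The matrix of nervous tissue is built on hyaluronan, a long sugar chain that bears chondroitin sulfate proteoglycans of the lectican family. Link proteins pin the lecticans to hyaluronan, and tenascins bind the free ends of the lecticans and cross-link them. SPARC proteins and fibulins are secreted glycoproteins that bind collagens, growth factors or elastic fibres and tune how cells hold to the matrix. In the retina such matrix surrounds synapses and cell bodies, lines the inner limiting membrane next to the endfeet of Müller glia, and forms part of vessel walls.

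The values were log2 values relative to an Input level of each gene, so that 1 Input library was usually exactly 0. They give differences between libraries, not levels, and genes cannot be ranked by abundance from them. Depth behind each value is unknown. Of the 14 Müller markers, 14 had a positive log2 fold change (median 0.44), as had 7716 of all 16422 genes. For 13 of them every Positive library was above both Input libraries, against 16.7% of all genes, while 0 were called by limma. The marker lists were chosen with earlier results of these data known, so these counts are no independent check of the label. Every Positive library was also above both Input libraries for 8 of 10 endothelial, 6 of 8 astrocyte and 5 of 8 pigment epithelium and choroid markers. The counts were 5 of 8 for pericyte and smooth muscle, 4 of 10 for ganglion cell, 3 of 10 for microglia and 2 of 7 for fibroblast markers. They were 0 for oligodendrocyte, horizontal, amacrine, bipolar, rod and cone markers. Markers of other cells also had positive medians. The median log2 fold change was 0.63 for pigment epithelium and choroid, 0.55 for endothelium, 0.48 for astrocytes and 0.43 for fibroblasts, against 0.04 for rods and -0.11 for bipolar cells. It was 0.25 for microglia, 0.25 for ganglion cells, 0.23 for pericytes and smooth muscle, 0.14 for oligodendrocytes, -0.01 for cones, -0.08 for amacrine cells and -0.17 for horizontal cells. In these bulk libraries a larger share of cells of a type and more RNA per cell cannot be told apart.

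Across the 9 genes, Sparc, Sparcl1 and Hapln1 lay higher in every Positive library than in both Input libraries, and Bcan lay lower in every Positive library. These are 3 genes above, against 16.7% of all genes tested, and 1 gene below, against 21.8% of all genes tested. Fbln1 and Vcan varied mainly between libraries of the same fraction, and Ncan, Tnc and Tnr had log2 fold changes between -0.22 and 0.08. The median log2 fold change of the 9 genes was 0.12, against -0.02 over all genes. In limma's test over all genes 0 of the 9 were called, as were 0 genes of the whole table (0% higher and 0% lower). At an unadjusted p under 0.05 there was 1 gene higher, Sparc, against 6.45% of all genes, and 1 gene lower, Bcan, against 7.76% of all genes.

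**Figure D1:**
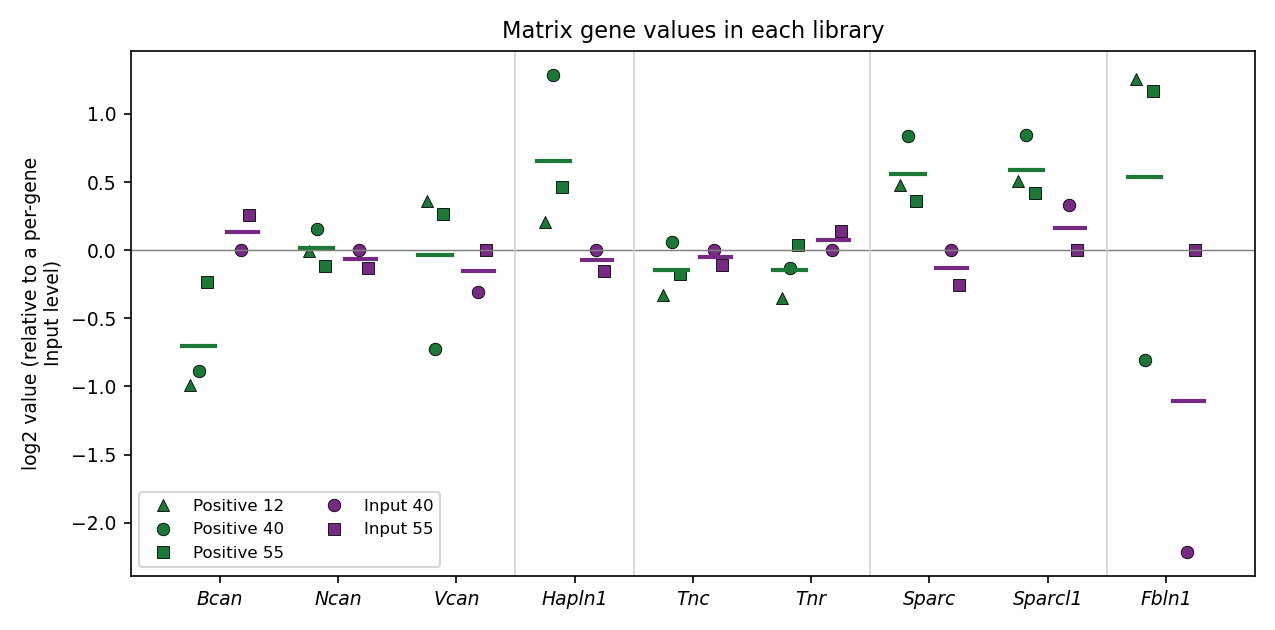
Log2 value (relative to a per-gene Input level) of each of the 9 genes in each library, Positive in green left of Input in purple, with symbols for the animal and bars for the fraction means. Sparc, Sparcl1 and Hapln1 have all 3 Positive points above both Input points, Bcan has all 3 below, and Fbln1 spreads from -2.21 to 1.25.

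Bcan encodes brevican, a lectican of the adult nervous system made by glia and neurons (Entrez gene 12032, mm10 chromosome 3, 87987531 to 88000356, minus strand). Its log2 values were -0.99 in Positive 12, -0.89 in Positive 40 and -0.23 in Positive 55, against 0 in Input 40 and 0.26 in Input 55. Every Positive library was thus below both Input libraries, with Positive 55 the closest to them. Positive averaged -0.70 ± 0.41 (SD, n = 3) and Input 0.13 ± 0.18 (SD, n = 2), a log2 fold change of -0.83 (SE 0.26, 95% interval -1.52 to -0.15) that corresponds to 0.561-fold. Within animals the difference was -0.89 in animal 40 and -0.49 in animal 55. Its adjusted p in limma was 0.331 (unadjusted p = 0.0266), so it was not called, although it stood at percentile 1.47 of all log2 fold changes. With the lowest log2 fold change of the 9 genes, Bcan was opposite in direction to the Müller marker list.

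Ncan encodes neurocan, a lectican of developing and adult nervous tissue (Entrez gene 13004, chromosome 8, 70093085 to 70120844, minus strand). It had log2 values of -0.0045, 0.15 and -0.11 in Positive 12, 40 and 55, against 0 and -0.13 in Input 40 and 55. The fractions overlapped, and the spread within each was as large as the gap between them. A log2 fold change of 0.08 was fitted (SE 0.11, 95% interval -0.21 to 0.37). The within-animal differences were 0.15 for animal 40 and 0.017 for animal 55, and the adjusted p in limma was 0.747. Ncan was the gene of the 9 with the smallest pooled SD, 0.12.

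Vcan encodes versican, a large lectican made by many mesenchymal and neural cells (Entrez gene 13003, chromosome 13, 89655310 to 89742512, minus strand). Positive 12 and Positive 55 had log2 values of 0.36 and 0.26 and Positive 40 had -0.73, against -0.31 in Input 40 and 0 in Input 55. Both libraries of animal 40 were the lowest of their fraction. Its fitted log2 fold change was 0.12 (SE 0.37, 95% interval -0.85 to 1.09), with an adjusted p of 0.890 in limma. In animal 40 the difference was -0.42 and in animal 55 it was 0.26, so the paired animals went opposite ways. The fitted value was -0.03 without Input 40 and 0.47 without Positive 40. No direction could be given for Vcan from these libraries.

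Hapln1 encodes a link protein that holds lecticans on hyaluronan (Entrez gene 12950, chromosome 13, 89540636 to 89611832, plus strand). It had log2 values of 0.21 in Positive 12, 1.29 in Positive 40 and 0.47 in Positive 55, against 0 in Input 40 and -0.15 in Input 55. Every Positive library was above both Input libraries, and Positive 40 stood well above the other Positive libraries. Positive averaged 0.65 ± 0.56 (SD, n = 3) and Input -0.08 ± 0.11 (SD, n = 2). The log2 fold change was 0.73 (SE 0.34, 95% interval -0.16 to 1.62), or 1.66-fold, and limma made no call (adjusted p = 0.390). The difference was 1.29 within animal 40 and 0.62 within animal 55. Without Positive 40 the log2 fold change was 0.41.

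Among the tenascins, Tnc encodes tenascin-C, a hexameric glycoprotein of development and injury (Entrez gene 21923, chromosome 4, 63959785 to 64047015, minus strand). It had log2 values of -0.33, 0.057 and -0.18 in Positive 12, 40 and 55, against 0 and -0.11 in Input 40 and 55. Positive 40 was the highest and Positive 12 the lowest library, with the Input libraries between them. A log2 fold change of -0.10 was fitted (SE 0.14, 95% interval -0.45 to 0.26, adjusted p = 0.747 in limma), and the sign differed between animals, at 0.057 in animal 40 and -0.069 in animal 55.

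Tnr encodes tenascin-R, a partner of the lecticans that in the nervous system comes mostly from oligodendrocyte lineage cells and some neurons (Entrez gene 21960, chromosome 1, 159523769 to 159924922, plus strand). Its log2 values were -0.35, -0.13 and 0.04 in Positive 12, 40 and 55, against 0 and 0.14 in Input 40 and 55. Positive 12 and 40 were below both Input libraries and Positive 55 lay between them. Its log2 fold change was -0.22 (SE 0.14, 95% interval -0.58 to 0.15, adjusted p = 0.482 in limma). Within animals the difference was -0.13 in animal 40 and -0.10 in animal 55, and without Positive 12 the log2 fold change was -0.12. In the same libraries the 7 measured oligodendrocyte markers, a list without Tnr, had median differences of 0.53 in animal 40 and -0.16 in animal 55, where Tnr was lower in both. The medians were negative in both animals for horizontal cell (-0.13 and -0.06), bipolar cell (-0.09 and -0.14) and amacrine cell markers (-0.06 and -0.08). They were positive in both for Müller, astrocyte and endothelial markers, among others. The part of any of these cells in the Tnr values was not tested.

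Sparc encodes the founding SPARC protein, also called osteonectin, which binds collagen and loosens adhesion (Entrez gene 20692, chromosome 11, 55394501 to 55420080, minus strand). It had log2 values of 0.48 in Positive 12, 0.84 in Positive 40 and 0.36 in Positive 55, against 0 in Input 40 and -0.26 in Input 55. The lowest Positive library lay 0.36 above the highest Input library, the widest such gap of the 4 genes that did not overlap. Positive averaged 0.56 ± 0.25 (SD, n = 3) and Input -0.13 ± 0.18 (SD, n = 2). The log2 fold change of 0.69 (SE 0.18, 95% interval 0.22 to 1.16) corresponds to 1.61-fold and stood at percentile 97.0 of all genes. Limma did not call it over all genes (adjusted p = 0.331, unadjusted p = 0.0134). The difference was 0.84 in animal 40, 0.62 in animal 55 and 0.61 for Positive 12 set against the Input mean.

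Sparcl1 encodes hevin, a SPARC relative that astrocytes secrete and that promotes synapse formation (Entrez gene 13602, chromosome 5, 104079109 to 104114088, minus strand). It had log2 values of 0.50, 0.85 and 0.42 in Positive 12, 40 and 55, against 0.33 and 0 in Input 40 and 55. All Positive libraries were above both Input libraries, but Positive 55 exceeded Input 40 by only 0.09. Its log2 fold change was 0.43 (SE 0.18, 95% interval -0.04 to 0.89), or 1.34-fold, with an adjusted p of 0.362 in limma. Set against the Input library of its own animal, the difference was 0.52 in animal 40 and 0.42 in animal 55. After quantile normalization the log2 fold change was 0.12, and without Input 55 it was 0.26. Medians of 0.44 for Müller, 0.43 for fibroblast and 0.48 for astrocyte markers were all close to its log2 fold change. Within animals the fibroblast list was mixed. Its median difference was 0.68 in animal 40 and -0.20 in animal 55, where Sparcl1 was higher in both. In animals 40 and 55 the medians were 0.59 and 0.35 for Müller, 0.65 and 0.18 for astrocyte and 0.63 and 0.39 for endothelial markers. They were 0.81 and 0.39 for pigment epithelium and choroid markers, and negative in both animals for bipolar, amacrine and horizontal cell markers. The part of any of these cells in the Sparcl1 values was not tested.

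Fbln1 encodes fibulin-1, a calcium-binding glycoprotein of basement membranes, vessel walls and elastic fibres that also binds lecticans (Entrez gene 14114, chromosome 15, 85206008 to 85286294, plus strand). Positive 12 and Positive 55 had log2 values of 1.25 and 1.17, Positive 40 had -0.80, Input 55 had 0 and Input 40 had -2.21. Both libraries of animal 40 were low, and the Positive library of that animal lay below Input 55, so the fractions overlapped. Positive averaged 0.54 ± 1.17 (SD, n = 3) and Input -1.11 ± 1.57 (SD, n = 2). Fitted over all libraries, the log2 fold change was 1.65 (SE 0.95, 95% interval -0.83 to 4.12, adjusted p = 0.445 in limma), the highest of the 9 genes and the least precise, since its pooled SD of 1.31 stood at percentile 99.6 of all genes. Within each animal Positive was higher than Input by a similar amount, 1.41 in animal 40 and 1.17 in animal 55. Leaving out Input 40 gave a log2 fold change of 0.54, and leaving out Input 55 gave 2.75. In the fit with a fixed replicate block per animal, which takes Positive 12 out of the contrast, it was 1.29 and was not called.

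**Figure D2:**
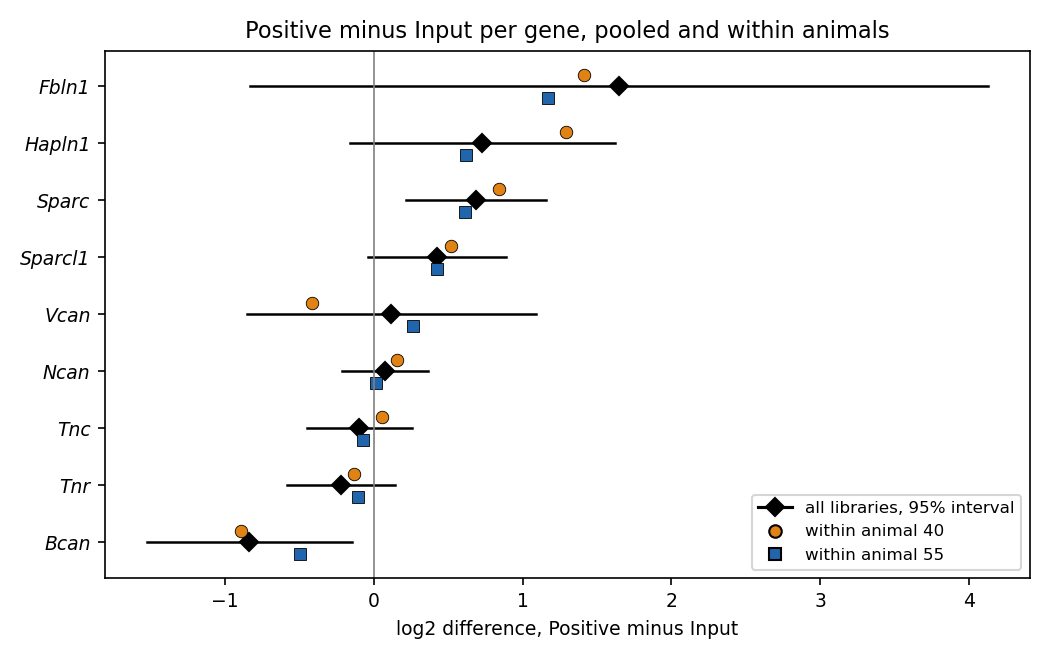
Log2 difference of Positive minus Input for each gene, from the fit to all libraries (diamonds with 95% intervals) and within animals 40 (circles) and 55 (squares). Fbln1, Hapln1, Sparc, Sparcl1 and Ncan lie to the right of 0 in both animals, Ncan by only 0.017 in animal 55. Bcan and Tnr lie to the left in both, and the interval for Fbln1 runs from -0.83 to 4.12.

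Read within animals, Positive was higher than Input in both animals for 5 of the 9 genes (Fbln1, Hapln1, Sparc, Sparcl1 and Ncan), against 31.7% of all genes. It was lower in both for 2 (Bcan and Tnr), against 38.4% of all genes, and the animals went opposite ways for Vcan and Tnc. Positive 40 was the highest of the 5 libraries for Ncan, Hapln1, Tnc, Sparc and Sparcl1, as it was for 24.5% of all genes, while for Vcan it was the lowest. Marker lists moved with these patterns. For Müller markers the median log2 value was 0.41, 0.65 and 0.31 in Positive 12, 40 and 55, against 0 and -0.0023 in Input 40 and 55, with Positive 40 highest, as for Sparc and Sparcl1. Astrocyte markers (medians of 0.28, 0.65 and 0.15 in Positive 12, 40 and 55), ganglion cell markers (0.13, 0.37 and 0.19) and cone markers (-0.18, 0.24 and -0.19) were also highest in Positive 40 among the Positive libraries. So, by smaller margins, were rod markers (0.12, 0.13 and -0.11) and bipolar cell markers (-0.14, -0.10 and -0.14). Pigment epithelium and choroid markers (0.79, 0.80 and 0.47) did the same. Animal 40 was the highest in both fractions for 11 of 14 Müller, 2 of 8 astrocyte, 7 of 10 ganglion cell and 6 of 8 cone markers, against 19.9% of all genes. The counts were 4 of 9 for rod, 2 of 10 for bipolar cell and 0 of 8 for pigment epithelium and choroid markers. The part of these cells in the values of Sparc, Sparcl1 and Hapln1 was not tested.

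Animal 40 was the lowest in both fractions for Fbln1 and Vcan, 2 of the 9 genes (22.2%), against 22.0% of all genes. This count thus does not set the 9 genes apart from other genes. Some endothelial markers were also lowest in animal 40 in both fractions. Endothelial markers had median log2 values of 0.48, 0.17 and 0.39 in Positive 12, 40 and 55, against -0.14 and 0 in Input 40 and 55, so that animal 40 was the lower animal in each fraction. Animal 40 was the lowest in both fractions for 6 of the 10 endothelial markers, against 22.0% of all genes, and the highest in both for 2, the receptor genes Kdr and Flt1. It was also the lowest in both for 4 of 10 bipolar cell, 3 of 7 fibroblast, 3 of 8 pericyte and 3 of 10 microglia markers. The counts were 2 of 8 for pigment epithelium and choroid, 2 of 8 for amacrine and 1 of 10 for ganglion cell markers. They were 0 for Müller, astrocyte, oligodendrocyte, horizontal cell, rod and cone markers. Fibroblast markers had medians of 0.38, 0.11 and -0.01 in Positive 12, 40 and 55, against -0.23 and 0 in Input 40 and 55. Pigment epithelium and choroid markers had medians of 0.79, 0.80 and 0.47 in Positive, against -0.26 and 0 in Input. The part of these cells in the Fbln1 and Vcan values was not tested.

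**Figure D3:**
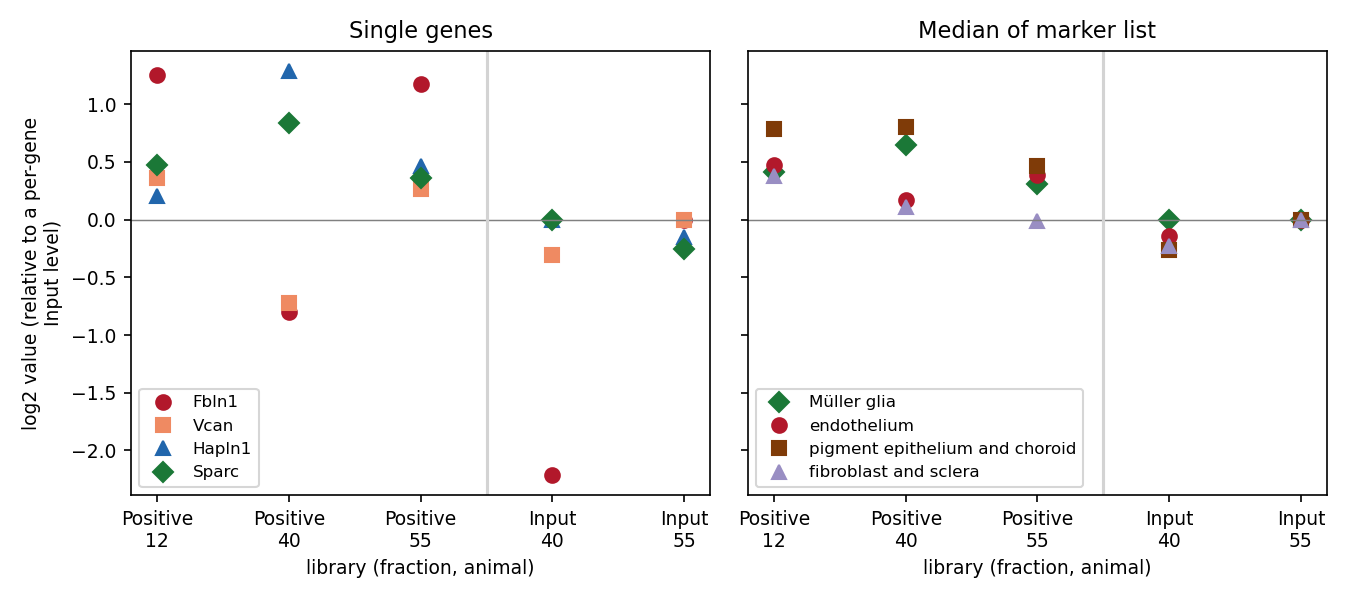
Log2 values of Fbln1, Vcan, Hapln1 and Sparc in the 5 libraries (left) and median log2 values of 4 marker lists in the same libraries (right), Positive left of Input. Fbln1 and Vcan are low in both libraries of animal 40, at -0.80 and -0.73 in Positive 40, while Hapln1 and Sparc are highest in Positive 40, at 1.29 and 0.84.

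In the mouse genome each lectican gene lies beside a link protein gene, and no other measured gene lay between the members of the 4 pairs. Bcan and Hapln2, which are 21.4 kb apart on chromosome 3, both had negative log2 fold changes, -0.83 (SE 0.26) and -0.65 (SE 0.33). Vcan and Hapln1, 43.5 kb apart on chromosome 13, differed, with 0.12 (SE 0.37) and 0.73 (SE 0.34), and their values in Positive 40 were the lowest and the highest of the 5 libraries. Ncan and Hapln4, 2.22 kb apart on chromosome 8, had 0.08 (SE 0.11) and -0.32 (SE 0.11). Acan, the gene of the cartilage lectican aggrecan, and Hapln3, 1.93 kb apart on chromosome 7, had 0.85 (SE 0.19) and -0.18 (SE 0.13). For Acan the filter on low values was met in only 1 condition. None of these 8 genes was called by limma over all genes, and differences within pairs were not tested.

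Of the genes that build, bind or cut this matrix, 0 in each of 6 lists were called by limma over all genes. For the signs counted below, 7716 of all 16422 genes had a positive log2 fold change and 8706 a negative one. The list of other lecticans, link proteins and tenascins also held Ptprz1 and Ptprs. Of its 7 measured genes, 6 had a negative log2 fold change (median -0.24). In 4 of the 7 every Positive library was below both Input libraries, against 21.8% of all genes. The lowest were Hapln2 and the tenascin-X gene Tnxb at -0.42 (SE 0.16), and the highest were Hapln3 and Acan. In the SPARC family and fibulins without the genes above, 8 of 12 had a positive log2 fold change (median 0.26) and 5 had every Positive library above both Input libraries, against 16.7% of all genes. The median was 0.15 without Input 55 and 0.45 without Input 40. The highest were the fibulin-5 gene Fbln5, needed for elastic fibres, at 0.78 (SE 0.19) and the fibulin-3 gene Efemp1 at 0.76 (SE 0.10). The lowest were the fibulin-2 gene Fbln2 at -0.53 (SE 0.27) and the hemicentin gene Hmcn1 at -0.44 (SE 0.19). Fbln1, Fbln2 and Fbln5, all fibulins, thus had log2 fold changes of 1.65, -0.53 and 0.78.

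For genes of hyaluronan synthesis, binding and turnover the median was -0.05, with 3 of 12 log2 fold changes positive. It was 0.064 after quantile normalization, -0.11 without Positive 55, -0.10 without Input 55 and -0.027 without Input 40. The hyaluronidase gene Hyal2 had 0.59 (SE 0.12) and Cd44, the hyaluronan receptor found on Müller glia processes, had 0.53 (SE 0.15). The scavenger receptor gene Stab1 had -0.35 (SE 0.11), and the hyaluronan synthase gene Has2, which met the filter in only 1 condition, had -1.39 (SE 0.77). Genes of chondroitin sulfate synthesis and sulfation had a median of 0.11, with 13 of 20 positive, and the median was 0.070 without Positive 40 and 0.075 without Positive 12. The chain-extending synthase gene Chsy3 had 0.95 (SE 0.43) and the epimerase-like gene Dsel 0.29 (SE 0.09), against -0.42 (SE 0.08) for Xylt1, whose enzyme starts the chains, and -0.27 (SE 0.12) for the polymerizing factor gene Chpf2. Among the 7 ADAMTS proteases that cut lecticans the median was 0.21, from -0.41 (SE 0.40) for Adamts4 and -0.19 (SE 0.25) for Adamts9 to 0.27 (SE 0.24) for Adamts8 and 0.30 (SE 0.11) for Adamts5. Leaving out Positive 40 brought the list's median to 0.053, and quantile normalization brought it to 0.13.

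In other matrix and cell-surface proteoglycans 18 of 25 log2 fold changes were positive (median 0.22), and 11 had every Positive library above both Input libraries, against 16.7% of all genes. The small leucine-rich proteoglycan genes Ogn and Fmod had the highest values, 1.44 (SE 0.66) and 1.28 (SE 0.34). Ogn had log2 values of 1.36, -0.18 and 0.73 in Positive 12, 40 and 55, against -1.61 and 0 in Input 40 and 55. Animal 40 was thus lowest in both fractions, as for Fbln1 and for 22.0% of all genes. Fmod is also among the fibroblast markers. The lowest of the list were the glypican gene Gpc5 at -0.69 (SE 0.12) and the agrin gene Agrn at -0.48 (SE 0.18).

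**Figure D4:**
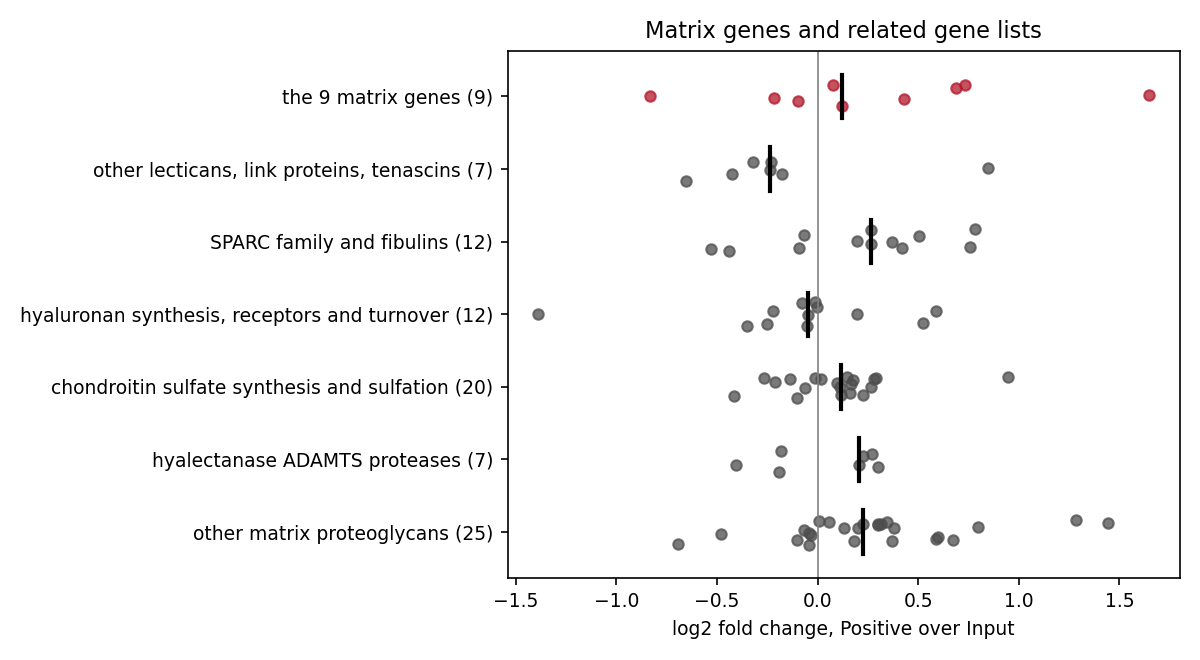
Log2 fold change (Positive over Input) of each of the 9 matrix genes and of each measured gene of the 6 related lists, with a bar at the median of each list and the number of genes in brackets. The ranges of the lists overlap, with medians from -0.24 for the other lecticans, link proteins and tenascins to 0.26 for the other SPARC and fibulin genes, and 0 of the genes shown was called by limma over all genes.

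Likeness was measured as the root-mean-square difference between the log2 values of 2 genes over the 5 libraries, each gene centred on its own mean. The genes most like Fbln1 were Gpx3, the plasma glutathione peroxidase gene, at 0.129, Ltbp2, which encodes a microfibril protein of the eye, at 0.229, and Gja1, the connexin 43 gene, at 0.281. Gja1 had log2 values of 1.83, -0.19 and 1.42 in Positive 12, 40 and 55, against -1.43 and 0 in Input 40 and 55. Animal 40 was lowest in both fractions, a pattern shared with Fbln1 by the way Gja1 was picked. Those most like Bcan were Vwa5b2 at 0.041, Gm19461 at 0.051 and the collagen gene Col11a2 at 0.058, with log2 fold changes of -0.88, -0.76 and -0.84. With 5 libraries these are descriptions of a shared pattern.

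Gene annotation of the same build (GENCODE M21) put 0 other genes over Bcan, Sparc and Fbln1. Sparcl1 and Vcan each overlapped an antisense gene, Gm26703 and Gm4117, and Tnc an opposite-strand transcript, 8030451A03Rik. An opposite-strand pseudogene lay over Hapln1 (Gm8546) and over Vcan (Gm16318). Over Tnr lay 2 genes of the same strand, Gm37731 and Gm10530, and over Ncan the microRNA gene Mir7066, also of the same strand. Overlap was read from whole gene spans, introns included, and use of strand in the counting is not given. Whether reads of these genes entered the values of the 6 genes they overlap is therefore unknown.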

How the data were processed

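Log2 values of 5 libraries were deposited by the authors in 1 table. RefSeq gene models were used, and a gene was retained if all libraries of 1 or both of the 2 conditions reached a raw value of 5, per the file headers. The submitters' processing notes name mm10 and DESeq. The aligner and counter were not given in the sources used here. The deposited log2 values are relative to a per-gene Input level and hold no counts or depth, so no count model was used. Positive minus Input was tested with limma 3.58.1 in R 4.3.3 (3 residual degrees of freedom, no trend, two-sided, Benjamini-Hochberg over 16422 genes, threshold 0.05 on the adjusted p), after a check on simulated data. Intervals are 95% intervals from limma's moderated variance. Exact permutation of 3 against 2 libraries cannot give a p under 0.1 and was not used. Libraries that share a number share an animal, per the labels, and their deviations from the group means correlated across genes at 0.174 (animal 40) and 0.195 (animal 55). The animal as a replicate block, other scalings, other variance models, a filter and leaving out each library were the alternatives. Members, lists and markers were chosen with earlier results of these data known. Named genes are the 9 members, the 2 highest and 2 lowest log2 fold changes of each of 6 related lists, and the 3 genes most like the highest and the lowest member. Hapln4, Kdr and Flt1 and, in the closing observations, the glypican genes were picked after their values were seen. Ptprz1 and Ptprs are named only to show what their list held.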

Additional observations from a re-analysis of the deposited data

How the results depend on the processing

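No member was called in limma under any of the 12 alternatives (0 of 9), with adjusted p between 0.111 and 0.994. Bcan, Fbln1, Hapln1, Ncan, Sparc, Sparcl1 and Tnr kept their direction in all 12. For Vcan the log2 fold change was -0.077 with a fixed replicate block per animal and -0.077 without Positive 12, -0.03 without Positive 55 and -0.03 without Input 40, and leaving out 1 library gave -0.077 to 0.47. Tnc had 0.017 after quantile normalization. Leaving out 1 library gave 0.0063 (Positive 40) to 0.14 (Input 40) for Ncan, -0.20 (Positive 40) to -0.0060 (Positive 12) for Tnc and -0.31 (Positive 55) to -0.12 (Positive 12) for Tnr. The cause was not tested. The median of the 9 genes was 0.086 with the fixed replicate block, which leaves out Positive 12, and 0.082 with the random replicate block, and leaving out 1 library gave 0.086 (Positive 12) to 0.30 (Positive 40). Leaving out 1 library gave 3 to 5 members above both Input libraries and 1 to 2 below, as fewer libraries overlap less. After quantile normalization 2 members lay above, as Sparcl1 then overlapped. The random block called 4 genes higher and 7 lower, none of them a member, while the fixed block and every omission of 1 library called 0. Genes at an unadjusted p under 0.05 numbered 2334, 1264 after quantile normalization, 4305 with the random block, and 930 (without Input 55) to 3188 (without Positive 55) when 1 library was left out. The blocks changed no call of a member. Depth is unknown, and the number of libraries limits precision.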

Other observations

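Glypicans, heparan sulfate proteoglycans anchored to the cell surface that carry growth factors, took different directions in the same libraries. They were picked after their values were seen. Gpc3 and Gpc4, neighbours on the X chromosome, had log2 fold changes of 0.80 (SE 0.15) and 0.60 (SE 0.13). Gpc3 had log2 values of 0.47, 0.79 and 0.66 in Positive 12, 40 and 55, against 0 and -0.32 in Input 40 and 55. Gpc5 and Gpc6, neighbours on chromosome 14, went opposite ways, with -0.69 (SE 0.12) and 0.32 (SE 0.11). Gpc5 had log2 values of -0.86, -0.57 and -0.80 in Positive 12, 40 and 55, against 0 and -0.10 in Input 40 and 55. For each of these 4 genes the fractions did not overlap, as for 16.7% of all genes above and 21.8% below, and none passed limma's test over all genes, with adjusted p of 0.331, 0.331, 0.329 and 0.345 for Gpc3, Gpc4, Gpc5 and Gpc6. Gpc1, at 0.13 (SE 0.07), also had every Positive library above both Input libraries, while the fractions overlapped for Gpc2 at -0.07 (SE 0.13).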
